A study of Homo sapiens with 12 samples.

Results

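RNAs recovered with the K120/182R form of HuR were compared with the RNAs of the same cells before precipitation. The rule took the 3 precipitate and the 3 input libraries of the line with mutant HuR, 6 of the 12 libraries in the series, and all genes counted in them. The series profiled the RNAs held by HuR with and without its sites for SUMO, a small protein attached to lysines, in HuH-7, an established human hepatoma line. In K120/182R a pair of lysines is replaced by arginine. Both groups used here are the same stable line, which expresses V5-tagged K120/182R HuR: one is RNA from V5 immunoprecipitates (RIP, RNA immunoprecipitation) and the other is total RNA (input). The labels name no treatment, although the data columns carry the word DMSO, and no age or sex applies to a line grown in culture. How many clones the line came from, and whether its own ELAVL1 gene was silenced, is not given in the sources used here. Background binding to beads was not analysed here, since neither a mock pull-down nor an untagged line is among the libraries used. The starting RNA was 16 to 77 ng for RIP and 250 ng for input, and this difference and the precipitation cannot be told apart. No label ties the replicates to separate cultures. The p-values therefore measure only how far the 3 libraries of a group lie apart, which may be technical.

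HuR, the product of ELAVL1, is an RNA-binding protein of the ELAV family with 3 RNA recognition motifs. It is found mostly in the nucleus, shuttles to the cytoplasm, and is known for binding U-rich and AU-rich elements in 3′ untranslated regions (UTRs) and introns. Binding is best known for protecting mRNAs from decay and for changing their splicing or translation. In liver cancer cells HuR has been studied for its part in proliferation, survival and senescence.

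The sequences below carry the findings on motifs and on small RNAs, and are read from GRCh37 (hg19), 5′ to 3′. The first pair are 30-base sites from 3′ UTRs of mRNAs higher in the precipitate, and the second pair are sites from mRNAs lower in it. Capitals mark the AU-rich nonamer TTATTTATT, so the same element stood in mRNAs at both ends of the ranking.
KPNA5 (chr6:117055640-117055669, plus strand): aaatacagttTTATTTATTtccttaaatat
MINDY3 (chr10:15820204-15820233, minus strand): gtatattacgTTATTTATTatgatcctagt
SLC7A5 (chr16:87863878-87863907, minus strand): ggcaccatgtTTATTTATTtccagtggtca
COL2A1 (chr12:48366963-48366992, minus strand): ggtgttctatTTATTTATTgtcttcctgta

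The next 3 are small nucleolar RNAs (snoRNAs) from introns that were higher in the precipitate and were also counted in every input. In the C/D box snoRNAs, capitals mark the C box (TGATGA) and the D box (CTGA), and in the H/ACA box snoRNA they mark the ACA box at the 3′ end.
SNORD12C (chr20:47895477-47895565, plus strand, in an intron of ZFAS1): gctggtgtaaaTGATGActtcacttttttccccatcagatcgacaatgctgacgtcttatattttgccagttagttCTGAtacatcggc
SNORD83A (chr22:39711218-39711312, minus strand, in an intron of RPL3): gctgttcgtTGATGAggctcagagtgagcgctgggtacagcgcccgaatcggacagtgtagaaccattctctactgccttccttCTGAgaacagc
SNORA33 (chr6:133138358-133138487, plus strand, in an intron of RPS12): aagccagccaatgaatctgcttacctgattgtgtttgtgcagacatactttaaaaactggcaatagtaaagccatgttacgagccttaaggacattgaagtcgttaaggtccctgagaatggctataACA

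Total counts ran from 31774994 to 46424851 in RIP and from 55886447 to 73149117 in input libraries. The first principal component held 80.9% of the variance and separated RIP from input. RIP library 1 differed more from RIP libraries 2 and 3 (chi-square per degree of freedom 68.8 and 63.3) than those did from each other (16.3). Input library 1 stood apart in the same way (29.6 and 24.3, against 13.6 between inputs 2 and 3), and separated from them on the second component. Hepatocyte and hepatoma markers were present, with 0 of 13 at 0 counts and a summed level of 3432 to 3862 CPM in RIP and 8725 to 9374 CPM in input (CPM, counts on a per-million scale of the normalised library size). The 7 immune and blood markers summed to 13.8 to 19.3 CPM in RIP and 12.8 to 82.4 in input, and the high end is input library 3, where HBB stood at 69.9 CPM against 1.14 and 5.83. Stromal and endothelial markers summed to at most 3.46 CPM in any library, and CDH5 was at 0 in all 6.

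The precipitates and inputs held different classes of RNA. Nuclear protein-coding genes took 66.7% ± 3.73 (SD, n = 3) of counts in RIP and 25.2% ± 1.34 (n = 3) in input. The 7SL genes and their copies, which encode the RNA of the signal recognition particle, took 0.741% ± 0.102 (n = 3) in RIP and 30.03% ± 0.955 (n = 3) in input. Small nuclear RNA genes took 7.56% ± 1.21 in RIP and 16.6% ± 0.283 in input. The 7SK genes and copies moved the other way, with 7.72% ± 1.47 in RIP and 2.28% ± 0.147 in input. Identifiers without a match in the annotation held 3.13% ± 0.285 of RIP counts and 20.2% ± 0.74 of input counts. Fold changes are therefore relative to the typical gene: scaling by trimmed mean of M values (TMM) put the median of all tested genes at log2 0.02, and scaling by total counts alone put it at 1.34.

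Of 20839 genes tested, 6367 (30.6%) were higher in RIP and 6351 (30.5%) were lower by edgeR's quasi-likelihood test (Benjamini-Hochberg adjusted p under 0.05). With total library size 15859 were higher and 928 lower. With TMM computed from protein-coding genes, 57.3% of the calls were higher. Of nuclear protein-coding genes 27.1% were higher and 37.3% lower (median −0.13). Directions below are those under TMM: with total library size each list described below except the secreted plasma proteins had more members called higher than lower. The counts of each list are to be read beside the shares of all tested genes, 30.6% higher and 30.5% lower. Below, values are normalised CPM for libraries 1, 2 and 3 in order, fold changes are log2 of RIP over input with the standard error of the fit, and adjusted p-values are from the same edgeR test. Where groups are said not to overlap, this describes single genes. The share of all tested genes with that trait is not given here, and it may be common.

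ELAVL1 mRNA (ENSG00000066044, chromosome 19, 8023457 to 8070543, minus strand) was lower in the precipitate. It stood at 28.1, 22.7 and 22.6 CPM in RIP and at 48.2, 42.7 and 40.2 in input. The groups did not overlap, and the fold change was −0.84 ± 0.13 (adjusted p = 2.96e-05). With total library size ELAVL1 was at 0.49. Reads of the transgene and of the cells' own gene are counted together.

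mRNAs of secreted plasma proteins were low in the precipitate. Of 57 listed plasma proteins secreted by hepatocytes 50 were tested, and 47 were lower and 0 higher, with a median of −1.37. Of the 50, 2 passed the filter on low counts only through the input libraries. After each library's dependence on the GC content of transcripts was taken out, 46 were lower and 0 higher (median −1.27), and 34.2% of all genes were higher and 25.1% lower. APOE, the apolipoprotein of remnant particles (ENSG00000130203, chromosome 19, 45409048 to 45412650, plus strand), stood at 16.4, 19.1 and 14.8 CPM in RIP. In input it stood at 283, 183 and 174 CPM. The fold change was −3.67 ± 0.19 (adjusted p = 7.08e-10).

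SERPINA1 encodes alpha-1 antitrypsin, the main serum inhibitor of neutrophil elastase (ENSG00000197249, chromosome 14, 94843084 to 94857030, minus strand). Its level was 58.6, 55.0 and 47.9 CPM in RIP and 586, 528 and 494 CPM in input (−3.32 ± 0.16, adjusted p = 3.32e-10). ALB, the mRNA of serum albumin, was less depleted. It stood at 259, 256 and 255 CPM in RIP and 645, 759 and 724 CPM in input (−1.47 ± 0.15, adjusted p = 4.86e-07). TF, the mRNA of the iron carrier transferrin, lay between them at −1.76 ± 0.15. Members that were not called included C5 (0.09) and C1S (−0.05), of the complement system. Without RIP library 1 the counts were 46 lower and 0 higher. With total library size they were 18 lower and 11 higher, with a median of −0.05 where all genes had 1.34.

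mRNAs of lysosomal hydrolases and membrane proteins were mostly lower. Of 49 tested of 50 listed, 42 were lower and 1 was higher, with a median of −1.07 (39 lower and 3 higher with the GC trend removed, and 13 lower and 19 higher with total library size). PLBD2, a phospholipase B-like protein of the lysosome (ENSG00000151176, chromosome 12, 113796371 to 113829434, plus strand), was the lowest coding mRNA under the naming rule. It stood at 1.88, 2.01 and 2.08 CPM in RIP and 31.6, 25.3 and 24.4 CPM in input (−3.77 ± 0.15, adjusted p = 1.17e-10). GRN, which encodes progranulin, stood at 5.38, 6.25 and 4.96 CPM in RIP and 54.6, 44.8 and 39.9 CPM in input (−3.07 ± 0.15, adjusted p = 3.6e-10). TPP1, a lysosomal peptidase, was at −2.35 ± 0.14 and LAMP1, a membrane glycoprotein of the lysosome, at −1.50 ± 0.12. The 1 higher member was MANBA, the lysosomal beta-mannosidase, at 2.53 ± 0.15. MANBA shares over 10% of its exon bases with another gene, and how reads in shared bases were counted is not given in the sources used here.

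Collagens, laminins, integrins and plexins were lower in 29 and higher in 3 of 36 tested members (44 listed, median −1.24). With total library size 11 were lower and 12 higher. Of the 36, 1 passed the filter on low counts only through RIP and was called higher, and 2 passed only through input. COL6A1, a chain of collagen VI, stood at 0.477, 0.616 and 0.708 CPM in RIP and 8.56, 5.99 and 5.75 CPM in input (−3.51 ± 0.23, adjusted p = 5.58e-09). AGRN, the basement membrane proteoglycan agrin, was at −2.90 ± 0.18 and NID1, which links laminin to collagen IV, at −1.93 ± 0.13. The RIP values of all 3 lay below every input value, a trait whose share over all tested genes is not given here. The plexin PLXNB2, a semaphorin receptor, was at −3.08 ± 0.17.

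The folding and translocation factors of the endoplasmic reticulum were mixed: 27 of 51 were lower and 11 higher, with a median of −0.85 (9 lower and 31 higher with total library size). CALR, the lectin chaperone calreticulin, stood at 96.2, 81.5 and 71.7 CPM in RIP and 586, 508 and 479 CPM in input (−2.66 ± 0.16, adjusted p = 2.64e-09). P4HB, a disulfide isomerase, was at −2.63 ± 0.15, and RPN2, a subunit of the oligosaccharyltransferase, at −2.00 ± 0.13. SSR4, a subunit of the translocon-associated complex, was at −2.19. UGGT2, which reglucosylates misfolded glycoproteins, stood at 54.0, 54.4 and 61.4 CPM in RIP and 7.82, 9.37 and 10.5 CPM in input (2.61 ± 0.13, adjusted p = 6.16e-10). SEC61G, a subunit of the translocon, was higher at 1.76, and SRP54, the GTPase of the signal recognition particle, at 1.26 ± 0.14. DNAJC3, a chaperone of the ER lumen, was at 1.14 ± 0.11.

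Cytosolic chaperones were higher in 15 and lower in 10 of 39 members (median 0.00), but 10 and 15 with the GC trend removed and 33 and 4 with total library size. Proteasome subunits were higher in 9 and lower in 18 of 40 (median −0.24), and 34 and 1 with total library size. Translation factors were higher in 15 and lower in 16 of 46 (median −0.03), 9 and 15 with the GC trend removed, and 40 and 1 with total library size. Their main counts are near the shares over all tested genes, 30.6% higher and 30.5% lower. Genes of glycolysis, a list that also holds the membrane transporter SLC16A3 (−1.52 ± 0.15), were lower in 14 and higher in 0 of 17 tested (median −1.14). They were lower in 11 and higher in 1 with the GC trend removed, and lower in 3 and higher in 8 with total library size. GPI, which interconverts glucose and fructose phosphates, was at −1.90 ± 0.13, and the aldolase ALDOA at −1.90 ± 0.16. Genes of cholesterol and fatty acid synthesis were lower in 19 and higher in 5 of 33 (median −0.62). That list holds the regulators SREBF2 and SCAP besides enzymes. With total library size 4 of its members were lower and 24 higher.

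**Figure D1:**
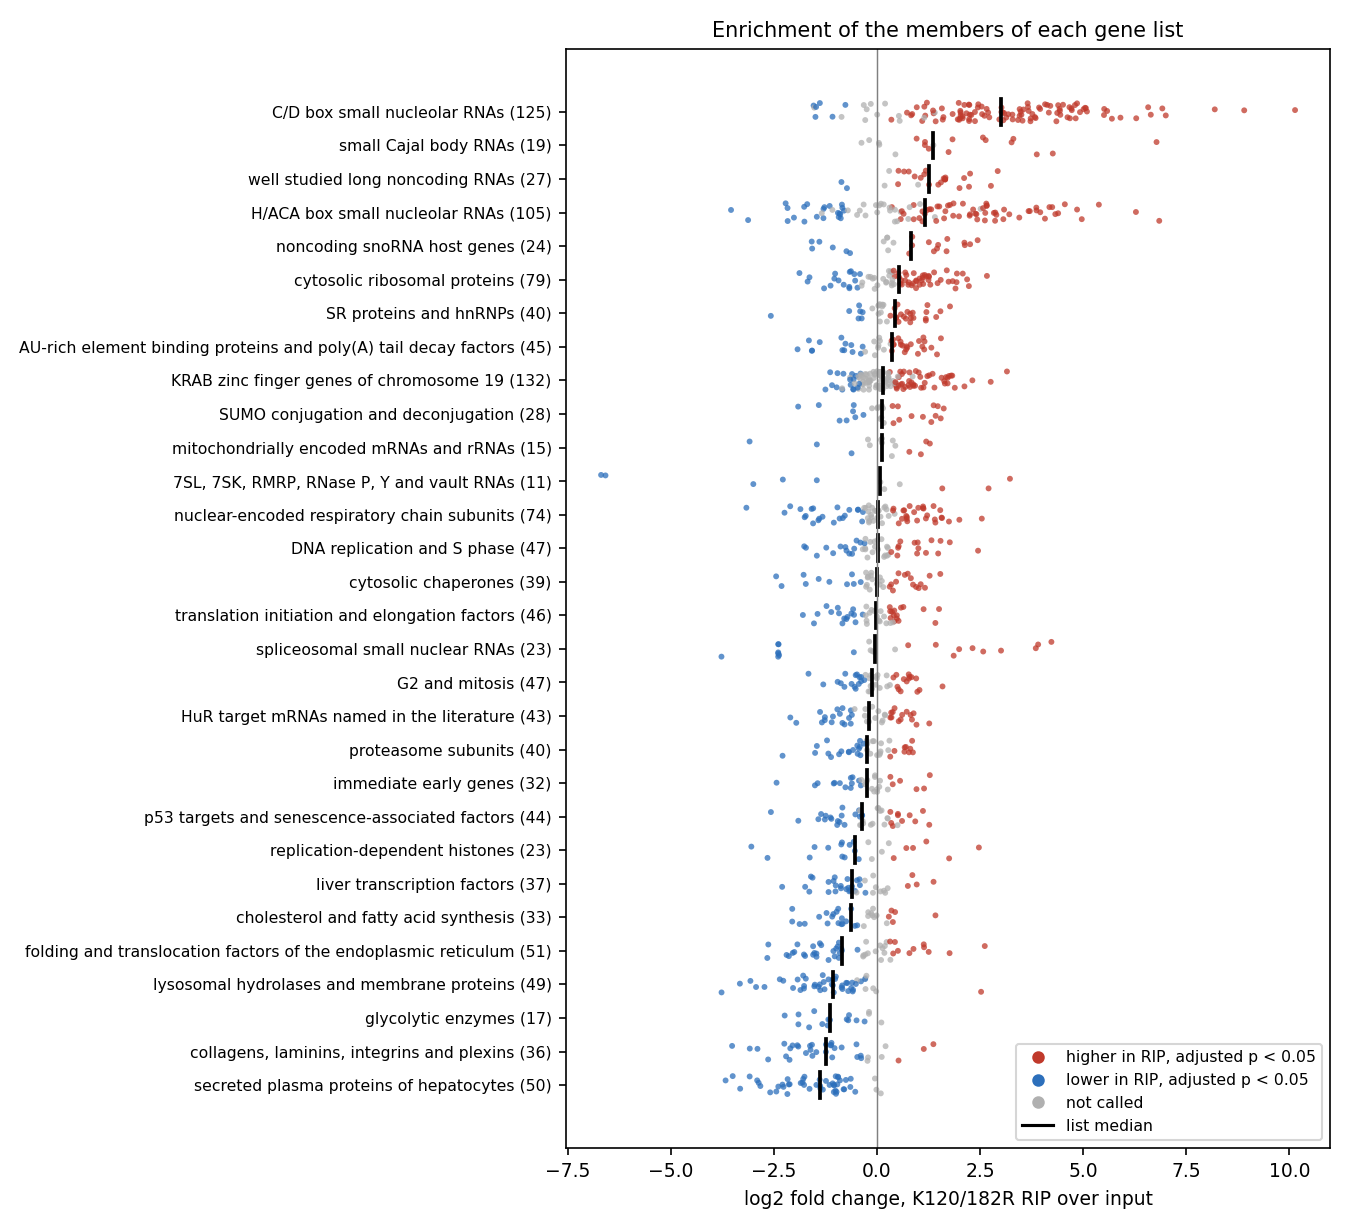
Log2 fold change of RIP over input (horizontal axis) for each tested member of 30 gene lists, with the number tested in parentheses; red and blue points passed the edgeR test as higher or lower, grey points did not, and the black bar is the list median. Secreted plasma proteins, with a median of −1.37, lie at the bottom and C/D box snoRNAs, with a median of 3.02, at the top. Of these 125 snoRNAs, 69 passed the filter on low counts only through RIP. The 55 that reached the filter's level in all inputs had a median of 1.83.

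Cytosolic ribosomal protein mRNAs, which carry a terminal oligopyrimidine tract, were higher in 43 and lower in 17 of 79 (median 0.54). RPL23, of the large subunit, stood at 2166, 2758 and 2513 CPM in RIP and 469, 614 and 551 CPM in input (2.19 ± 0.19, adjusted p = 8.57e-08). RPS23, of the small subunit, stood at 2493, 3885 and 4075 CPM in RIP and 665, 812 and 752 CPM in input (2.23 ± 0.22). RPLP2, an acidic protein of the stalk, went the other way, with 125, 174 and 135 CPM in RIP and 586, 532 and 477 CPM in input (−1.88 ± 0.17, adjusted p = 1.01e-07). RPS15, of the small subunit, was also lower, at −1.63 ± 0.18. RIP library 1 had the smallest list median (0.24, against 0.77 and 0.59 for libraries 2 and 3). Many of these genes have processed pseudogene copies, so their reads may be split.

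The genes named as highest or lowest were taken only from those whose groups did not overlap, so that trait is not a finding for them. Several of the highest coding genes were well expressed. MAN1A2 encodes a Golgi mannosidase that trims N-glycans (ENSG00000198162, chromosome 1, 117910071 to 118071494, plus strand). It stood at 586, 595 and 643 CPM in RIP and 39.3, 46.9 and 45.5 CPM in input (3.79 ± 0.16, adjusted p = 1.43e-10). ARHGAP12, a GTPase-activating protein (ENSG00000165322, chromosome 10, 32094326 to 32217804, minus strand), was nearly identical across RIP libraries. Its values were 705, 708 and 711 CPM in RIP and 60.02, 76.3 and 76.0 CPM in input (3.32 ± 0.16, adjusted p = 4.09e-10).

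LYPLAL1, a lysophospholipase-like protein, stood at 175, 186 and 199 CPM in RIP and 14.8, 20.2 and 20.3 CPM in input (3.34 ± 0.15). KPNA5, an importin alpha that carries nuclear localisation signals, stood at 57.0, 59.2 and 62.7 CPM in RIP and 5.48, 5.11 and 6.78 CPM in input (3.36 ± 0.14). SPAG16, a protein of the ciliary axoneme, stood at 102, 107 and 118 CPM in RIP and 10.6, 13.9 and 12.2 CPM in input (3.15 ± 0.14). DNAI4, MTHFD2L and ZNF626 were at 3.15 to 3.55. LRRC37A3 (3.58 ± 0.18) has near-identical copies and is uncertain.

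**Figure D2:**
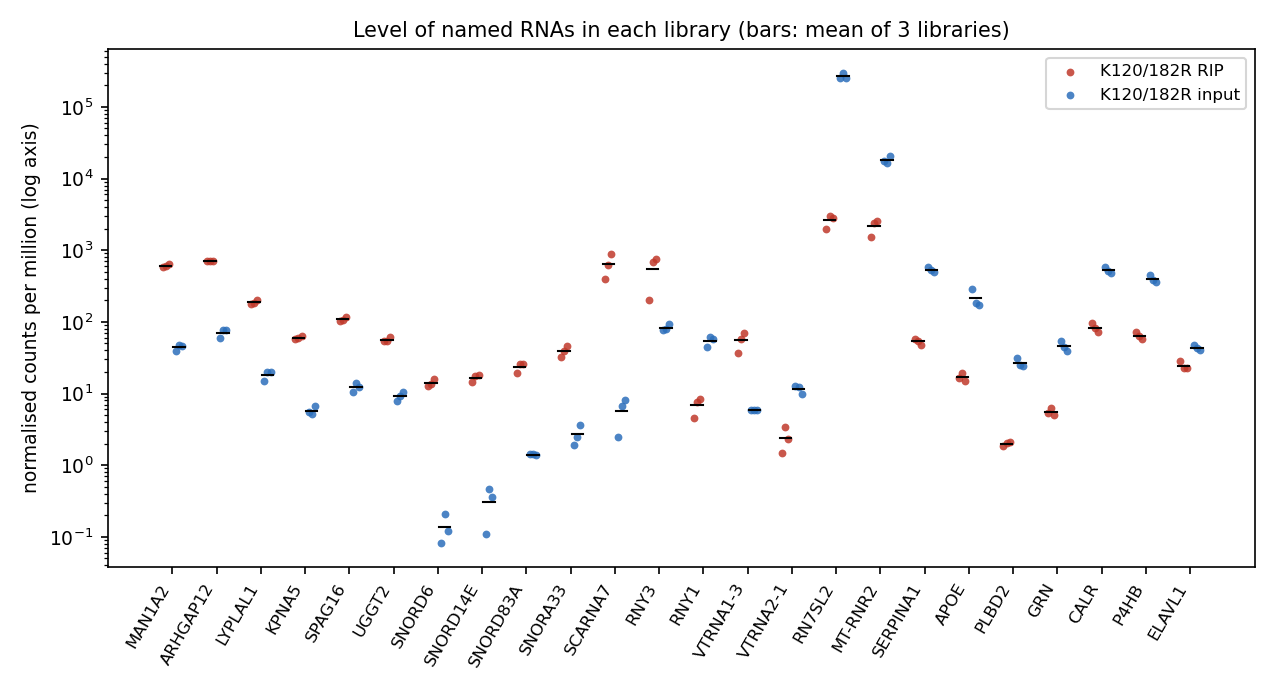
Normalised CPM (log axis) of 24 RNAs in each of the 3 RIP (red) and 3 input (blue) libraries, with a bar at the mean of each group. The RIP values of MAN1A2 (586 to 643) lie above its input values (39.3 to 46.9), and those of APOE (14.8 to 19.1) below its input values (174 to 283).

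Fold changes were lower the higher the GC content of the transcript. When coding genes were split into 3 groups of equal size by the GC content of the transcript, the GC-poor group had a median of 0.37, the middle group −0.08 and the GC-rich group −0.87. In the GC-poor group 48.2% of genes were higher and 13.9% lower, and in the GC-rich group 6.76% were higher and 65.8% lower. The difference between the outer groups was −1.23 in the fit. Taken for each RIP library against the mean input, with a pseudocount of 0.5 CPM, it was −1.04 ± 0.147 (SD, n = 3) and ran from −1.21 to −0.95. Library preparation and amplification can also depend on GC content, and their part in this result was not tested.

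Total intron length went with fold change less once GC content was taken out: the difference between the outer groups was 0.60, and 0.11 with the GC trend removed. The group with the longest introns had a median of 0.19, the middle group −0.18 and the shortest −0.40. Within the GC-poor coding genes the medians were 0.66, 0.36 and 0.11 from longest to shortest. In the middle group they were 0.03, −0.14 and −0.10, and in the GC-rich genes −0.91, −0.90 and −0.78, so the order was not kept. Single genes did not follow it either: the histone genes H2BC21 (−3.04 ± 0.16) and H4C8 (2.47 ± 0.17) are both annotated without an intron. Counts per gene do not separate spliced from unspliced reads.

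mRNAs with AU-rich motifs had higher fold changes over all coding genes, but not within GC-poor mRNAs. The pentamer ATTTA, read on the transcript strand, is in 67.9% of all 18977 annotated 3′ UTRs. Its 9579 tested carriers had a median of −0.02 and the 3835 tested mRNAs without it −0.53. Among GC-poor mRNAs the medians were 0.36 with the pentamer and 0.50 without it. In the middle group they were −0.12 and 0.06, and in the GC-rich group −0.83 and −0.89.

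The nonamer TTATTTATT, which contains the pentamer, is in 8.48% of annotated 3′ UTRs and in 18.3% of the longest UTRs. The 1227 tested carriers had a median of 0.05, against −0.15 for the other mRNAs. Within the GC-poor group the medians were 0.34 with it and 0.38 without it. A run of 7 T, TTTTTTT, is in 45.1% of annotated UTRs, and carriers had a median of −0.01 against −0.29. Within the GC-poor group carriers stood at 0.32 and the others at 0.50.

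The mRNAs whose sites are shown above span that range. KPNA5 was at 3.36 ± 0.14 and MINDY3, a deubiquitinase, at 2.89 ± 0.12, with 65.7, 68.5 and 68.6 CPM in RIP and 8.12, 10.02 and 9.28 CPM in input. SLC7A5, a transporter of large neutral amino acids, was at −2.89 ± 0.16. COL2A1, the fibrillar collagen II, was at −2.60 ± 0.16. The presence of the letters does not show that a site was bound.

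**Figure D3:**
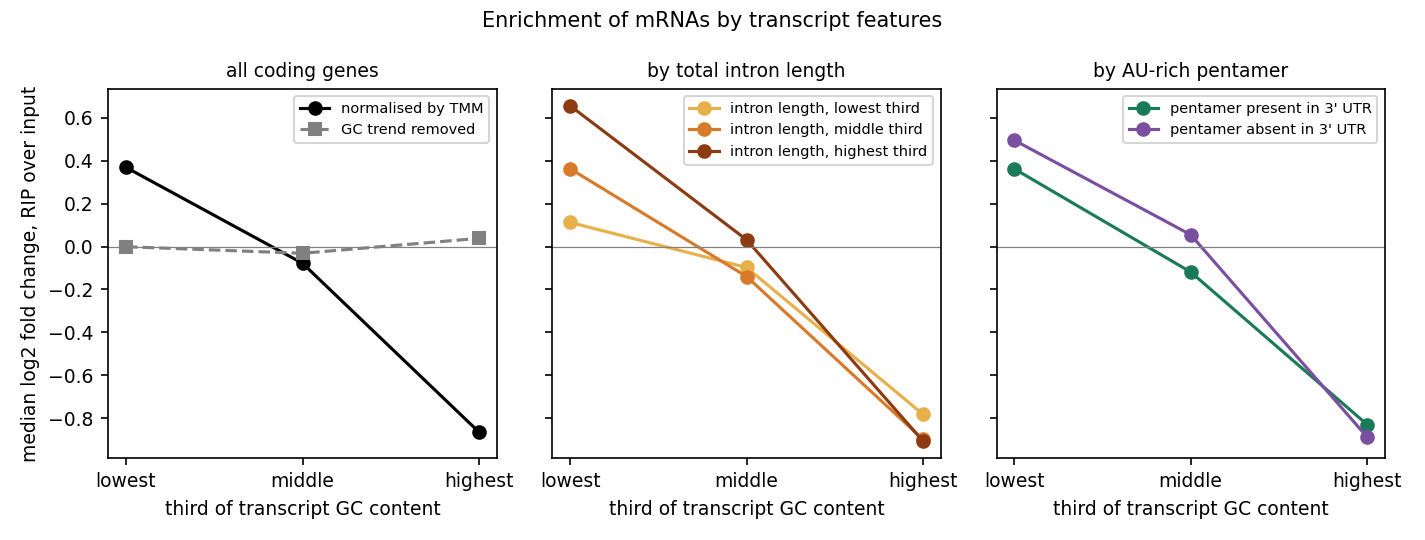
Median log2 fold change of coding genes (vertical axis) in 3 groups by transcript GC content (horizontal axis), for all coding genes with and without the GC trend removed (left), by total intron length (centre) and by the presence of the AU-rich pentamer in the 3′ UTR (right); the points carry no error bars. The median falls from 0.37 to −0.87 with GC content, and within a GC group carriers of the pentamer lie within 0.18 of the mRNAs without it.

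Of 49 HuR targets named in the literature 43 were tested, and 14 were higher and 17 lower. These counts are near the shares over nuclear coding genes, 27.1% higher and 37.3% lower. The targets had a median of −0.19, against −0.13 over nuclear coding genes and 0.02 over all genes. With total library size 35 targets were higher and 2 lower, where of all 20839 genes 15859 were higher and 928 lower. The higher ones included the chemokine CXCL8, at 4.77, 5.40 and 7.41 CPM in RIP and 1.61, 3.26 and 2.35 CPM in input (1.27 ± 0.24, adjusted p = 0.000244). NCL, which encodes the nucleolar protein nucleolin, was at 0.89 ± 0.13, and XIAP, an inhibitor of caspases, at 0.85 ± 0.13. CCNB1, the mitotic cyclin B1, stood at 79.3, 81.2 and 79.3 CPM in RIP and 43.3, 53.9 and 48.2 CPM in input (0.72 ± 0.12, adjusted p = 7.21e-05). FOS, an immediate early transcription factor, was at 0.96 ± 0.26 from levels of at most 2.37 CPM.

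ACTB, the mRNA of beta-actin, was the lowest target, at 254, 190 and 188 CPM in RIP and 1096, 803 and 809 CPM in input (−2.10 ± 0.19, adjusted p = 1.11e-07). MTA1, a subunit of a deacetylase complex, was at −1.96 ± 0.17. The groups did not overlap for either. Targets that were not called included HIF1A, the oxygen-regulated transcription factor (−0.04 ± 0.12), SIRT1, a deacetylase (0.14 ± 0.14), and VEGFA, a vascular growth factor (0.20 ± 0.11). With the GC trend removed, 9 were higher and 16 lower.

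Of 45 factors that bind AU-rich elements or shorten poly(A) tails, 23 were higher and 13 lower (median 0.36). With the GC trend removed 19 were higher and 11 lower (median 0.10). PUM2, a Pumilio repressor, stood at 146, 128 and 132 CPM in RIP and 39.2, 48.2 and 51.1 CPM in input (1.55 ± 0.13, adjusted p = 8.22e-08). TIAL1, a relative of TIA1, was at 1.32 ± 0.13. KHSRP, which promotes decay of AU-rich mRNAs, was lower at −1.92 ± 0.16. SR proteins and hnRNPs were higher in 22 and lower in 7 of 40 (median 0.45). HNRNPH3 was at 1.54 ± 0.12, and HNRNPUL1 was the lowest member at −2.57 ± 0.15.

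The SUMO pathway, which the mutation concerns, had 12 higher and 8 lower of 28 tested members (median 0.13), and 12 and 3 with the GC trend removed. SENP6, a protease that removes SUMO chains, stood at 136, 127 and 132 CPM in RIP and 42.2, 42.6 and 43.8 CPM in input (1.62 ± 0.12, adjusted p = 1.34e-08). UBA2, a subunit of the SUMO activating enzyme, was at 1.42 ± 0.13, and RANBP2, a SUMO ligase of the nuclear pore, at 1.48 ± 0.13. TRIM28, a corepressor that is itself a SUMO ligase, was lower at −1.91 ± 0.14. The modifier SUMO2 (0.01 ± 0.12) was not called.

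Genes of p53 targets and senescence were lower in 19 and higher in 10 of 44 (median −0.35), and without RIP library 1 the higher ones numbered 6. CCL20, a chemokine, was at 1.12 ± 0.13 and HMGA1, an architectural chromatin protein, at −2.57 ± 0.16. Replication genes split 15 higher to 14 lower of 47, with ORC4, of the origin recognition complex, at 2.45 ± 0.15 and the thymidine kinase TK1 at −1.72 ± 0.17. Mitosis genes split 15 higher to 16 lower of 47. Both splits are near the shares over all tested genes, 30.6% higher and 30.5% lower. The phosphatase CDC25C was at 1.59 ± 0.13 and the kinase AURKB at −1.66 ± 0.13. Liver transcription factors were lower in 24 and higher in 4 of 37 (median −0.60), but in 14 each with the GC trend removed. NR1H4, the bile acid receptor, was at 1.37 ± 0.16 and CREB3L3, a membrane-bound factor of liver metabolism, at −2.30 ± 0.20.

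Immediate early genes were lower in 13 and higher in 6 of 32 (median −0.25), and with the GC trend removed 6 were lower and 11 higher. JUND, a GC-rich member of the AP-1 family, was at −2.43 ± 0.19, and SGK1, a kinase induced by glucocorticoids, at 1.28 ± 0.14. The KRAB zinc finger genes of chromosome 19 were higher in 47 and lower in 17 of 132, but 29 and 36 with the GC trend removed. Of the 132, 11 passed the filter on low counts only through RIP, 4 of them called higher. Of the 121 that reached the filter's level in all inputs, 43 were higher and 17 lower. ZNF66 was at 2.76 ± 0.17. The nuclear-encoded respiratory chain was higher in 28 and lower in 22 of 74, with NDUFA10, of complex I, at 1.40 ± 0.11 and ATP5F1D, of the ATP synthase, at −3.16 ± 0.21.

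Replication-dependent histone mRNAs typically end in a stem-loop in place of a poly(A) tail. Of 23 tested of 55 listed, 13 were lower and 6 higher. With the GC trend removed 12 were higher and 5 lower. H4C8 stood at 612, 848 and 751 CPM in RIP and 131, 140 and 127 CPM in input (2.47 ± 0.17, adjusted p = 6.38e-09). H2BC21, above, stood at 23.1, 30.6 and 22.2 CPM in RIP and 239, 195 and 192 CPM in input. Its annotated 3′ UTR is 1801 bases long, and how its counted transcripts end was not tested. Histone genes are close copies, so their reads may be split.

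Of 3737 long noncoding RNAs tested, 1348 (36.1%) were higher and 637 (17.05%) lower, with a median of 0.42, and of pseudogenes 35.1% were higher and 16.0% lower. The difference from coding genes was not tested. Over all genes tested, 3533 passed the filter on low counts only through RIP and 201 only through input. These numbers were not split by class, so the class shares are given as a description. In a separate list of well studied long noncoding RNAs, 22 of 27 tested were higher and 2 lower (median 1.26). Of the 27, 4 passed the filter only through RIP. The list holds TUG1 (−0.73 ± 0.15), which the annotation used here gives as protein-coding. CRNDE stood at 40.8, 41.0 and 42.7 CPM in RIP and 7.66, 9.58 and 9.21 CPM in input (2.23 ± 0.13, adjusted p = 1.19e-09). NEAT1, the scaffold of paraspeckles, stood at 153, 168 and 192 CPM in RIP and 51.7, 51.4 and 60.8 CPM in input (1.65 ± 0.14). Neither RNA overlapped between the groups. MALAT1, a nuclear speckle RNA, was at 1.15 ± 0.17 and NORAD, a decoy of Pumilio proteins, at 1.49 ± 0.16. LINC01967 was at 4.09 ± 0.16, the highest named long noncoding RNA.

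The snoRNAs guide chemical modification of ribosomal RNA and other RNAs, and most are released from introns of host genes. Many were counted in the precipitate and hardly in the input. Of 125 tested C/D box snoRNAs, which guide ribose methylation (389 listed), 69 passed the filter on low counts only through the RIP libraries, a route open only to RNAs high in RIP. Over all 125, 107 were higher and 6 lower (median 3.02), which is given as a description. Of the 55 that reached the filter's level in all 3 inputs, 40 were higher and 6 lower (median 1.83), where of all such genes 4744 of 16894 were higher.

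Of 46 C/D box snoRNAs within an intron on the strand of the host, 35 passed only through RIP. The other 11 had 8 higher and 0 lower. Of 69 that overlap an exon of a host, 37 reached the level in input, with 30 higher and 2 lower. Of the 8 outside coding and long noncoding genes, 1 passed only through RIP. The other 7 had 2 higher and 4 lower, and the 4 lower ones are copies of 1 RNA, U3. Those of the 7 that are not U3 were at 0.53 to 3.05.

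SNORD83A, whose sequence is given above, stood at 19.5, 25.9 and 25.9 CPM in RIP and 1.42, 1.41 and 1.39 CPM in input (4.08 ± 0.17, adjusted p = 1.22e-10). SNORD12C stood at 13.6, 19.7 and 20.97 CPM in RIP and 0.818, 1.71 and 1.73 CPM in input (3.65 ± 0.24), without overlap. The host RPL3 was not called (0.01). SNORD6 passed the filter only through RIP and is given without a fold change: 12.7, 13.7 and 16.1 CPM in RIP and 0.0818, 0.208 and 0.12 CPM in input, from 1008, 935 and 773 reads against 3, 9 and 5.

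The U3 genes, C/D box RNAs needed for processing of ribosomal RNA and transcribed from their own promoters, were lower. SNORD3A stood at 662, 1368 and 1228 CPM in RIP and 2275, 3004 and 3223 CPM in input (−1.38 ± 0.25, adjusted p = 0.000163). Its copies SNORD3B-1 (−1.47 ± 0.22) and SNORD3B-2 (−1.49 ± 0.23) can share its reads. SNORD13, another RNA with its own promoter, was higher at 2.46 ± 0.29.

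H/ACA box snoRNAs, which guide pseudouridylation, were higher in 60 and lower in 22 of 105 tested (399 listed, median 1.16), but 21 passed the filter only through RIP. Of the 83 at its level in all inputs, 41 were higher and 22 lower. SNORA33, shown above, stood at 32.0, 39.9 and 46.1 CPM in RIP and 1.94, 2.45 and 3.67 CPM in input (3.86 ± 0.21, adjusted p = 1.12e-09). SNORA47, in an intron of ZBED3, was lower, with 0.565, 0.806 and 0.77 CPM in RIP and 5.42, 6.25 and 6.86 CPM in input (−3.12 ± 0.21). Of those in introns on the host strand that reached this level, 10 of 33 were higher and 12 lower. Small Cajal body RNAs, which guide modification of spliceosomal RNAs, were higher in 13 and lower in 0 of 19 tested (median 1.37), of which 4 passed only through RIP. In RIP library 1 their median was 0.51, and in libraries 2 and 3 it was 1.39 and 1.61. SCARNA7 (ENSG00000238741, chromosome 3, 160232695 to 160233024, minus strand, in an intron of KPNA4) stood at 397, 616 and 898 CPM in RIP and 2.45, 6.64 and 8.22 CPM in input (6.78 ± 0.57, adjusted p = 4.31e-05). Reads of unspliced host RNA were not told apart from those of the small RNAs.

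In a list of snoRNA host genes drawn up for hosts without a coding function, 13 of 24 were higher and 6 lower (median 0.82). The list also holds TAF1D (2.26 ± 0.19), which is annotated as protein-coding. With the GC trend removed 16 were higher and 2 lower, and with total library size 20 and 0. SNHG15 stood at 95.9, 126 and 117 CPM in RIP and 35.1, 44.1 and 44.1 CPM in input (1.46 ± 0.14). SNHG3 went the other way, at 272, 512 and 464 CPM in RIP and 903, 1141 and 1237 CPM in input (−1.39 ± 0.22, adjusted p = 4.79e-05). Neither overlapped between the groups.

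The short RNAs made by RNA polymerase III differed from each other, with 3 higher and 5 lower of 11 tested 7SL, 7SK, Y and vault RNAs. Without RIP library 1 the counts were 5 and 5. RN7SL2, the 7SL RNA (ENSG00000265150, chromosome 14, 50329271 to 50329567, minus strand), stood at 1951, 3044 and 2840 CPM in RIP. In input it stood at 252470, 299439 and 255104 CPM (−6.69 ± 0.35, adjusted p = 7.08e-10). Its copies are near-identical, so separate values are uncertain. RN7SK, which holds the elongation factor P-TEFb in an inactive state, stood at 29887, 49006 and 50826 CPM in RIP and 25850, 32520 and 29999 CPM in input. These ranges overlapped, and the difference did not pass the test (0.55 ± 0.26, adjusted p = 0.078), although it passed under other settings, among them without RIP library 1 (0.73), with the GC trend removed (1.34), with total library size (1.85) and in DESeq2 (0.57).

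The Y RNAs, which bind the Ro60 protein, did not share a direction. RNY1 stood at 4.49, 7.58 and 8.45 CPM in RIP and 44.4, 60.6 and 57.7 CPM in input (−2.996 ± 0.205, adjusted p = 1.83e-08). RNY3 stood at 205, 675 and 753 CPM in RIP and 77.3, 79.2 and 93.6 CPM in input (2.71 ± 0.48, adjusted p = 0.00243). RNY5 was higher at 1.58 ± 0.27 and RNY4 was not called (0.08 ± 0.28, adjusted p = 0.814). RIP library 1 was the lowest RIP library for all 4 Y RNAs. All 4 lie close together on chromosome 7.

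The genes annotated by name as vault RNAs split too. VTRNA1-3 stood at 37.0, 57.3 and 70.7 CPM in RIP and 5.97, 5.85 and 5.80 CPM in input (3.22 ± 0.20, adjusted p = 4.74e-09). VTRNA1-1 was at −1.46 ± 0.29, and VTRNA2-1 at −2.28 ± 0.23, with 1.49, 3.37 and 2.33 CPM in RIP and 12.5, 12.5 and 9.83 CPM in input. Of 23 spliceosomal RNA genes 10 were higher and 8 lower, and 1 of the higher ones passed the filter on low counts only through RIP. The U6 genes RNU6-8 (4.23 ± 0.30) and RNU6-1 (3.01 ± 0.24) were among the higher and the U1 gene RNU1-2 (−2.39 ± 0.24) among the lower. These are families of near-identical copies, so gene-level values are uncertain.

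Mitochondrial RNAs were recovered unevenly, with 4 higher and 3 lower of the 15 mRNAs and ribosomal RNAs. Without RIP library 1, 6 were higher and 3 lower. MT-RNR2, the large ribosomal RNA, stood at 1527, 2387 and 2541 CPM in RIP and 17672, 16388 and 20774 CPM in input (−3.09 ± 0.26, adjusted p = 5.28e-08). MT-RNR1, the small ribosomal RNA, had overlapping groups, at 1464, 2555 and 2474 CPM in RIP and 2099, 1368 and 1582 CPM in input (0.36 ± 0.23, adjusted p = 0.187). Of the mRNAs, MT-CO2 was at 1.28 ± 0.23 and MT-CO1 was not called (0.12 ± 0.23), both subunits of cytochrome oxidase.

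Transfer RNAs of both strands were among the higher ones and among the lower ones. On the plus strand MT-TT, for threonine, was at 2.60 ± 0.23, MT-TF at 2.36 ± 0.20 and MT-TW at 2.17 ± 0.41. MT-TK (1.43), MT-TL1 (0.85) and MT-TV (0.56) of that strand were also higher. Lower on it were MT-TL2 (−2.00), MT-TS2 (−1.42), MT-TI (−0.97), MT-TH (−0.93), MT-TG (−0.52) and MT-TR (−0.46). MT-TM and MT-TD were not called. The others that follow are annotated on the minus strand. MT-TA, for alanine, stood at 219, 585 and 533 CPM in RIP and 14.9, 37.0 and 25.0 CPM in input (4.12 ± 0.52, adjusted p = 0.000568). MT-TN, MT-TC and MT-TY, its neighbours for asparagine, cysteine and tyrosine, were at 3.69 ± 0.41, 3.70 ± 0.32 and 3.74 ± 0.31. MT-TP, for proline, was at 3.50 ± 0.64. On the same strand MT-TQ, for glutamine, was lower (−1.46 ± 0.26), MT-TS1 and MT-TE were at 0.71 and 0.79, and the mRNA MT-ND6 was not called (0.10 ± 0.17). RIP library 1 and input library 1 were the lowest of their groups for MT-TA, MT-TN, MT-TC, MT-TY and MT-TP.

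**Figure D4:**
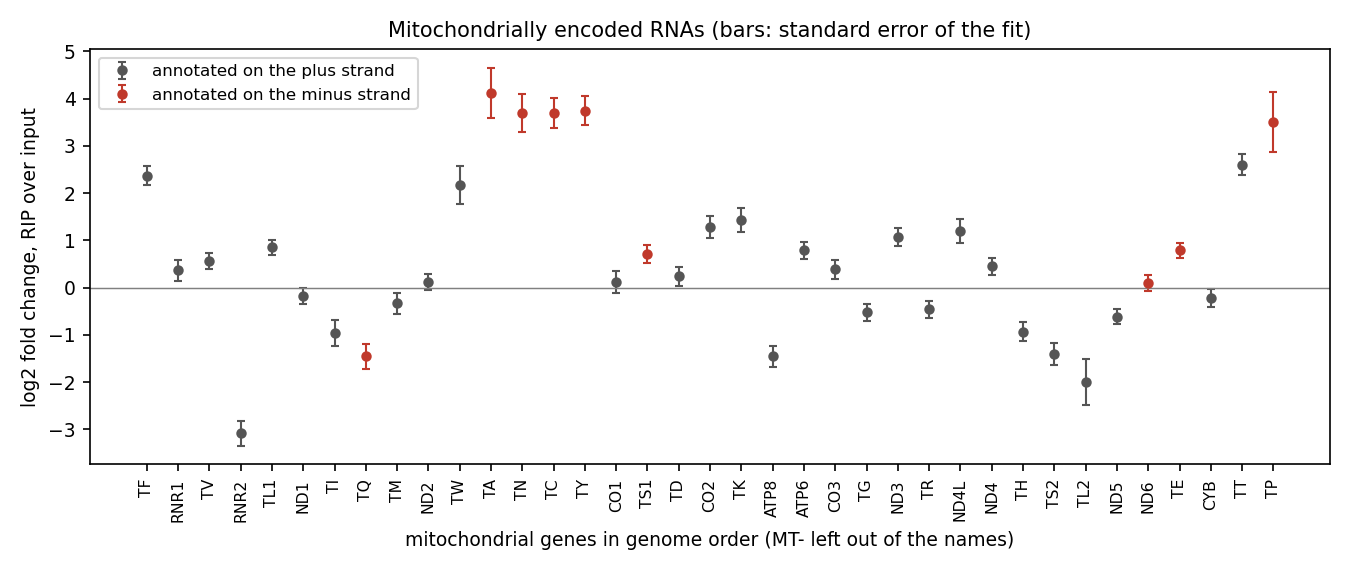
Log2 fold change of RIP over input for the mitochondrially encoded genes in genome order, with the standard error of the fit, coloured by annotated strand. MT-TA, MT-TN, MT-TC and MT-TY form a block between 3.69 and 4.12, and MT-RNR2 is the lowest at −3.09.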

How the data were processed

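The authors deposited unnormalised counts for each Ensembl gene, with 1 column per library. Per the submitters' processing notes the tools were bcl2fastq 2.20.0.422, cutadapt, STAR 2.4.0j and featureCounts 1.6.4, with build hg19; per the labels the libraries were stranded total RNA. Annotation release, strand setting and the treatment of multimapping reads are not given in the sources used here. The other 6 libraries of the series were not used.

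Identifiers were matched to GENCODE 44 on GRCh37 (55538 of 57773), and it may differ from the authors' annotation. edgeR 4.0.16 (R 4.3.3) fitted the 6 libraries by group after filterByExpr (minimum count 10, minimum total 15), TMM scaling and a robust quasi-likelihood fit with 4 residual degrees of freedom. The common coefficient of variation was 0.153. On simulated data with 19819 genes, 100 genes were changed by log2 1 and 100 by 0.5. Of these 60% and 11% were found, with 6 false calls of 77. Far fewer genes were changed there than were called in the real libraries, so these rates need not hold for the real comparison. The GC trend was removed by lowess (span 0.3) on log counts of each library. Python 3.11.15, pandas 2.3.3, pysam 0.24.0 and DESeq2 1.42.0 were also used.

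Named genes were ELAVL1, the literature targets of HuR, and, among genes with adjusted p under 0.05, mean log2 CPM of at least 2, separated groups and at most 10% shared exon bases, the 12 highest and 12 lowest coding genes and the 8 highest and 8 lowest others, plus up to 4 called members per list, direction and motif. ALB, TF, C5, C1S, LAMP1, SEC61G, SUMO2, MALAT1, NORAD, RPL3, SNORD12C, SNORD13, RN7SK, RNY4, VTRNA1-1, HBB and the mitochondrial genes beyond MT-TA, MT-RNR2 and MT-CO2 were chosen after their values were seen. Members and all 33 lists were chosen with earlier results of these data known. Not all genes that the rule takes are printed. List counts without RIP library 1, with total library size or with the GC trend removed, and features within GC groups, were added after seeing the data, as was the count of members that reached the filter's level (0.195 CPM of the unscaled totals) in all inputs.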

Additional observations from a re-analysis of the deposited data

How the results depend on the processing

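With total library size 15859 genes were higher and 928 lower, and the median of all genes was 1.34. ELAVL1 (0.49), HIF1A (1.29) and C1S (1.27) then turned positive. With a fold limit of log2 1 the counts were 2314 and 1940. Leaving out 1 library at a time gave 5652 to 6125 higher and 5834 to 6233 lower genes, and the other scalings, filters and the DESeq2 test stayed within 1.5 times of the main counts.

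With the GC trend removed, C5 turned to −0.25, and with the replicate block added it was at −0.25. The differences of medians between outer feature groups then became 0.039 for transcript GC (from −1.23), −0.34 for 3′ UTR length (0.19), −0.020 for 3′ UTR T content (1.01), 0.15 for exons (0.21) and 0.11 for intron length (0.60). They became −0.13 for ATTTA (0.51), −0.069 for TTATTTATT (0.20) and −0.22 for TTTTTTT (0.28), so the sign turned for 3′ UTR length, T content, transcript GC and all 3 motifs. Coding length moved from 0.032 to 0.065 in genes with a mean log2 CPM of at least 2. The cause was not tested.

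Replicate numbers are shared between RIP and input, but their deviations did not correlate for every number (0.30, −0.03 and 0.43 for 1, 2 and 3), and RIP library 2 correlated best with input 1 (0.18). With the number as a replicate block 6452 genes were higher and 6484 lower. Low counts limit the small RNAs, as in the inputs of SNORD6.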
